A study of Caenorhabditis elegans with 2 samples.

Results

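The cytosolic ribosomal protein genes of Caenorhabditis elegans were taken as the protein-coding genes whose names begin with rpl- or rps- in the Ensembl gene models of the WBcel235 assembly. The rule found 78 genes, 47 for the large subunit (rpl-) and 31 for the small subunit (rps-), among 19973 protein-coding genes on the 6 nuclear chromosomes. The rule used names alone and no measured value. Regions of HMBX-1 occupancy were counted for a gene when the summit, the position of highest signal in the region, lay within 500 bp of the gene start, taken as the first base of the gene model on its strand.

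Chromatin immunoprecipitation with sequencing (ChIP-seq) had been performed in whole early embryos of mixed sex from strain OP656, whose genotype is given as unc-119 (tm4063) III; wgIs656. This transgene supplies HMBX-1, a homeobox protein related to human HMBOX1, with a GFP-FLAG tag at its C terminus, and its promoter is not stated. Both samples were biological replicates of a single group, collected 45 min after egg bleaching, so there was no contrast between conditions. The sample description names an anti-GFP precipitation, whereas the antibody field names hmbx-1, and no mock or untagged precipitation was analysed here.

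Ribosomes consist of a small subunit, which decodes the messenger RNA, and a large subunit, which joins amino acids, and each subunit is built from rRNA and many ribosomal proteins. The proteins are needed in nearly equal amounts, and their genes are among the most highly transcribed in growing cells, embryos included. In C. elegans several ribosomal protein genes also carry snoRNA genes in their introns, and a snoRNA guides the chemical modification of rRNA.

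Of the ribosomal protein genes, 11 of 78 (14.1%) had a thresholded region at the start, against 207 of 19973 protein-coding genes (1.04%). Thresholded regions are those that passed the authors' irreproducible discovery rate (IDR) procedure, which keeps regions by how consistently they rank between lists. The thresholded list was made from both replicates. The 11 genes were rpl-3, rpl-11.2, rpl-15, rpl-20, rpl-35, rps-4, rps-11, rps-19, rps-20, rps-26 and rps-28, and each had a region of its own. All 11 summits lay upstream of the start and between annotated genes. In the relaxed list of the pooled replicates 61 of 78 genes (78.2%) had a region, these 11 among them, against 32.2% of all protein-coding genes. These are counts over the genome with 1 group of samples, and no test of a difference was available. Read depth is unknown, so a gene without a region cannot be called unbound.

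The sequences under 6 of the 11 summits are shown: the 4 of highest signal, all at rpl- genes, and those of rps-28 and rps-4, of lower signal, because their letters differ from the first 4. Each line gives the summit base with 50 bases on each side, in the direction of the ribosomal protein gene, from the RefSeq copy of WBcel235. Capitals mark the words TACGGT, GCGTGTTT and AAGTGT in the rpl- windows and TATAAA in the rps-4 window, read on either strand. In the rpl-3 window (chrIII:3867553-3867653, plus strand) all of the first 3 words occur. In the rpl-35 window (chrIII:7854634-7854734, plus strand) GCGTGTTT occurs, and AAGTGT at 2 positions. The rpl-15 window (chrIV:654882-654982, minus strand) again holds all of the first 3 words, and the rpl-20 window (chrIV:4750015-4750115, minus strand) holds TACGGT and AAGTGT. The windows of rps-28 (chrIV:1659218-1659318, plus strand) and rps-4 (chrIV:7085037-7085137, minus strand) hold none of these 3 words. Of the windows not shown, that of rps-20 holds TACGGT, and those of rpl-11.2, rps-11, rps-19 and rps-26 hold none of the 3. TACGGT thus occurs in windows of both subunits, while GCGTGTTT and AAGTGT occur only in rpl- windows, though not in that of rpl-11.2. The words were noticed in the rpl- windows shown, so this split is no evidence of a difference between subunits. The G and C content was 55.4% at rpl-3, 52.5% at rpl-35, 57.4% at rpl-15, 44.6% at rpl-20 and 55.4% at rps-28, while at rps-4 it was 16.8%.
rpl-3: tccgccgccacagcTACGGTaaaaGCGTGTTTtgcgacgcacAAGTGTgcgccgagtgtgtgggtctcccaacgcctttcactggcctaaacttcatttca
rpl-35: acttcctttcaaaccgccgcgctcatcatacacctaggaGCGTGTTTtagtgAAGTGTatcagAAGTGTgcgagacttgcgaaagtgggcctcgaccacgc
rpl-15: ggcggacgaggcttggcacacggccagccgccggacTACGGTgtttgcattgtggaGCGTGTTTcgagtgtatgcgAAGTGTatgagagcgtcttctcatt
rpl-20: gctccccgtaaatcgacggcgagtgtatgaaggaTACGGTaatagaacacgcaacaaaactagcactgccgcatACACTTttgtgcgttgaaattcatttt
rps-28: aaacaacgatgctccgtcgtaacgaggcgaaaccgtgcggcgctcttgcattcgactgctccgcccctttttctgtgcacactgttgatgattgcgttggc
rps-4: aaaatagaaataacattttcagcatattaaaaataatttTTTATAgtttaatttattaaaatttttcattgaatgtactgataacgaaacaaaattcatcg

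Signal values are those of the authors' peak caller, on a scale that is not stated, and were compared only within a list. Over the 416 nuclear thresholded regions it ran from 95.3 to 688.3, with a median of 134.0. In the pooled relaxed list of 29978 nuclear regions the median was 30.7, and in the lists of replicate 1 (25383 nuclear regions) and replicate 2 (22887) it was 23.1 and 17.1. Positions below are in bp from the gene start, with negative values upstream.

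Among large-subunit genes, the strongest region belonged to rpl-3, whose protein reaches toward the peptidyl transferase centre. It spanned chrIII:3867472-3867734, with a pooled signal of 292.8 (rank 28 of 416), 176.9 in replicate 1 and 118.4 in replicate 2, and a summit at -251. The nearest start of any other gene, acs-19, lay 3114 bp from that summit, so no competing start was close. At rpl-20 the region (chrIV:4749820-4750309) had a pooled signal of 219.6, with 105.0 in replicate 1 and 115.6 in replicate 2. Its summit was at -287 and only 175 bp from the start of the divergent gene Y17G9B.5, the closer gene by the pooled and replicate 2 summits. The strongest replicate 1 summit, at -218, lay 244 bp from that start and so nearer to rpl-20.

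The gene rpl-35 encodes a protein at the exit of the peptide tunnel. Its region (chrIII:7854439-7854928) had a pooled signal of 188.8, with 123.3 in replicate 1 and 66.3 in replicate 2, and a summit at -450. No other start lay within 2558 bp of that summit. At rpl-15 the region (chrIV:654687-655176) had a pooled signal of 180.6, with 98.9 in replicate 1 and 83.9 in replicate 2, and a summit at -356. The other start nearest to it, that of K11H12.8, was 458 bp away. The weakest of the large-subunit regions was at rpl-11.2 (chrX:2242768-2243257), a pooled signal of 99.0 with 65.0 in replicate 1 and 27.1 in replicate 2. Its summit at -395 lay 102 bp from the start of the ncRNA gene AH9.7, and its replicate 2 region stood only in the top 9.63% of that list, whereas in replicate 1 it stood in the top 1.43%.

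The 6 small-subunit genes had pooled signals from 104.1 to 163.4 at their thresholded regions. At rps-26, whose protein contacts messenger RNA where it leaves the ribosome, the region (chrI:14759292-14759781) had a pooled signal of 163.4, with 89.5 in replicate 1 and 88.3 in replicate 2. Its summit at -393 lay 64 bp from the start of tmem-107 and within 250 bp of the snoRNA gene F39B2.14. This was the single member region at a small RNA gene (tRNA, snoRNA, snRNA or rRNA). With regions at such genes left out, 10 of the 11 members and 168 of the 207 protein-coding genes kept a thresholded region. Of all 416 thresholded regions, which need not lie near a protein-coding start, 201 (48.3%) were at small RNA genes. At rps-28 the region (chrIV:1659023-1659512) had a pooled signal of 142.9, with 91.1 in replicate 1 and 48.3 in replicate 2. Its summit was at -423, and the closest other start, Y41D4B.4, was 842 bp away.

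The gene rps-19 is the worm counterpart of the human gene most often mutated in Diamond-Blackfan anaemia. Its region (chrI:9625782-9626271) had a pooled signal of 119.7, with 50.9 in replicate 1 and 68.0 in replicate 2. The summit at -231 was 214 bp from the start of hsr-9. At rps-20 (chrI:14469100-14469589) the pooled signal was 113.6, with 61.1 in replicate 1 and 55.3 in replicate 2, and the summit at -242 was 155 bp from the start of ekl-4. Both summits thus lay between divergent starts and nearer to the partner.

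The remaining members with a thresholded region were rps-4 and rps-11, both for small-subunit proteins. At rps-4 (chrIV:7084842-7085331) the pooled signal was 104.4, with 55.2 in replicate 1 and 47.4 in replicate 2, and the summit was at -405. At rps-11 (chrIV:11601910-11602399) the pooled signal was 104.1, with 71.6 in replicate 1 and 44.9 in replicate 2, and the summit was at -486. For rps-11 the strongest region of replicate 2 peaked at -240, while that of replicate 1 peaked at -490, so the replicates did not place the summit alike there. These were also the members with the least G and C at the summit, 16.8% at rps-4 and 26.7% at rps-11, where the median of the 11 member windows was 52.5% and that of all 416 thresholded windows 48.5%. The deposited -log10 q of the 11 regions lay between 2.05 and 2.24 and separated them little.

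**Figure D1:**
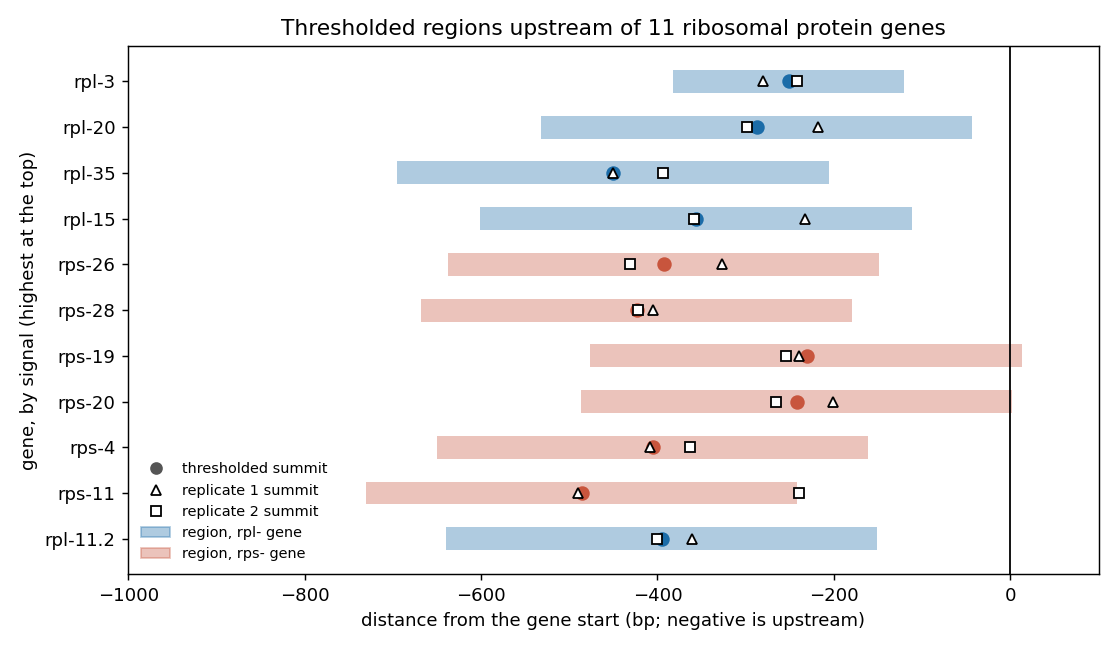
Each bar is the thresholded region of a ribosomal protein gene, drawn against the distance from the gene start in bp, with genes ordered by signal. The pooled summit and the strongest summit of each replicate are marked; all 11 pooled summits lie between -486 and -231, and the replicates part most at rps-11.

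A region was counted for a gene even where another gene began closer to the summit. Counting only the nearest start of any annotated gene left 6 of 78 ribosomal protein genes (7.69%), against 116 of 19973 protein-coding genes (0.581%). These 6 were rpl-3, rpl-15, rpl-35, rps-4, rps-11 and rps-28. With only protein-coding starts in competition, 7 of 78 (8.97%) remained, against 0.821% of all protein-coding genes, and the gene added was rpl-11.2. At the other 4 genes, rpl-20, rps-19, rps-20 and rps-26, the start of a divergent protein-coding gene was closer. By subunit, thresholded regions were at 5 of 47 rpl- genes (10.6%) and 6 of 31 rps- genes (19.4%). After the nearest-start rule 3 rpl- and 3 rps- genes kept theirs, and the subunits were not tested against each other.

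The summits sat far upstream of the gene start, which is the first base of the gene model. Where transcription begins was not measured. At the 11 members with a thresholded region the median position was -393 (range -486 to -231), and all 11 lay at least 200 bp upstream. Over the 207 protein-coding genes with a thresholded region, 87.4% had the best summit upstream, with a median of -191, and 46.4% were at least 200 bp upstream. In the pooled relaxed list, 55 of 61 ribosomal protein genes (90.2%) had their strongest summit upstream, against 58.3% of the 6441 protein-coding genes with such a region. The median pooled position was -245 for ribosomal protein genes and -72 for all protein-coding genes, and 65.6% and 32.8% of them were at least 200 bp upstream. Each replicate gave the same side: 45 of 49 ribosomal protein genes in replicate 1 (91.8%) and 53 of 60 in replicate 2 (88.3%) had the summit upstream, against 58.2% and 58.8% of protein-coding genes. The relaxed lists were counted without the nearest-start rule. At many members, such as rpl-22 and rpl-30, another gene began closer to the strongest pooled summit. At many others, such as rpl-3 and rpl-38, none did.

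**Figure D2:**
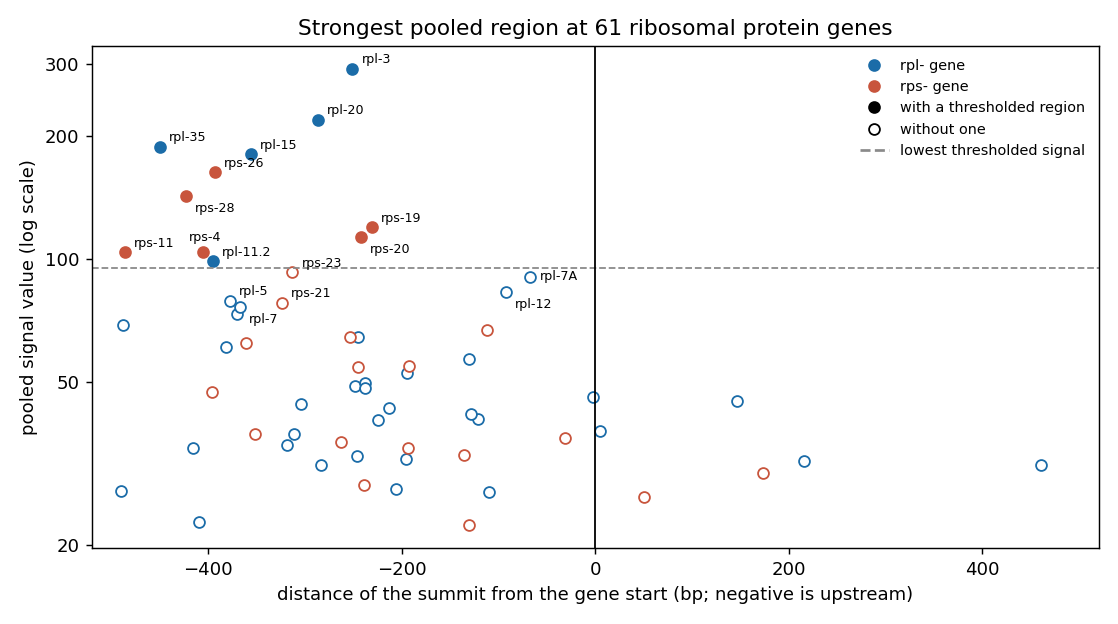
Each circle is the strongest pooled relaxed region of a ribosomal protein gene, with the summit's distance from the gene start in bp across and the pooled signal value on a log scale up; filled circles have a thresholded region. Of the 61 circles 55 lie left of the start, and the 11 filled ones all lie at least 200 bp left of it.

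Regions in the relaxed lists, which hold background along with peaks, were common at these genes when counted without the nearest-start rule. Replicate 1 had a region at 49 of 78 ribosomal protein genes (62.8%), against 28.2% of all protein-coding genes, and replicate 2 at 60 (76.9%), against 26.2%. Both replicates had one at 38 genes (48.7%), against 13.5%. Another 11 genes had a region in replicate 1 alone and 22 in replicate 2 alone. Over all protein-coding genes the shares were 28.2% in replicate 1, 26.2% in replicate 2 and 13.5% in both. A region in a single replicate was thus common there too, and these counts are not read as a trait of the members. In the replicate 2 list 28 of 31 rps- genes (90.3%) and 32 of 47 rpl- genes (68.1%) had a region, while in replicate 1 the shares were 58.1% and 66.0%, so the subunit with the larger share differed between replicates.

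Signal values near the starts of the ribosomal protein genes, again without the nearest-start rule, were also high within the pooled list. The median of the strongest region was 48.5 over the 61 genes (45.5 for rpl- and 54.9 for rps- genes), against 33.8 over the 6441 protein-coding genes. Of the 61 genes, 28 (45.9%) had a region in the top 10% of that list by signal (value of at least 50.5), against 18.5% of the 6441. With the genes that had a thresholded region set aside, 17 of 50 ribosomal protein genes (34.0%) were in that top 10%, against 985 of 6234 protein-coding genes (15.8%).

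**Figure D3:**
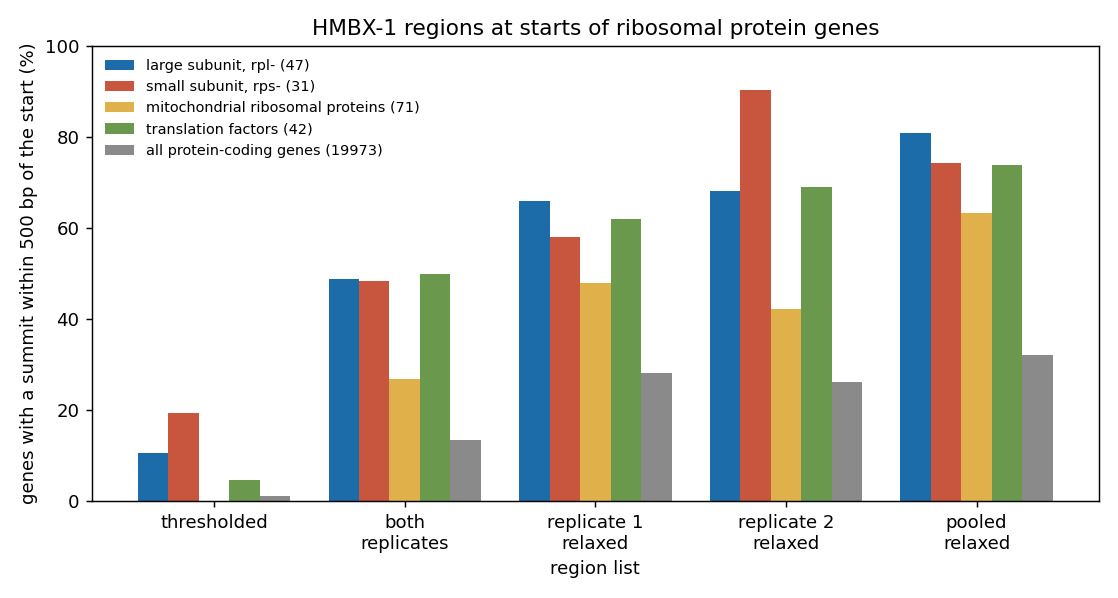
Bars give the percentage of genes with a region summit within 500 bp of the start in each list, for large-subunit and small-subunit ribosomal protein genes, mitochondrial ribosomal protein genes, translation factors and all protein-coding genes. Thresholded regions reach 10.6% and 19.4% of the rpl- and rps- genes and 1.04% of all protein-coding genes.

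The threshold fell within a continuous run of members. Just inside it were rpl-11.2 with 99.0 and rps-11 with 104.1. Just outside was rps-23, whose protein lies at the decoding centre, with a pooled signal of 93.1 (43.3 in replicate 1, 48.2 in replicate 2) and a summit at -313. It was followed by rpl-7A with 90.7 (56 in replicate 1, 31.1 in replicate 2) at -68. Both lie head to head with another gene, dpm-3 and set-21. The rps-23 summit was closer to the start of dpm-3, at 221 bp. That of rpl-7A was closer to its own start than to set-21, at 186 bp. The stalk-base gene rpl-12 had 83.2 (40.3 in replicate 1, 41.1 in replicate 2) at -92, between its start and that of lin-54.

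Further down were rpl-5, rps-21 and rpl-7. The gene rpl-5, whose protein joins the ribosome bound to a small rRNA, had 79.2 (42.1 in replicate 1, 53.4 in replicate 2) at -378. For rps-21 the pooled signal was 78.3 (32.0 in replicate 1, 41.8 in replicate 2) at -324, and for rpl-7 it was 76.6 (38.8 in replicate 1, 39.5 in replicate 2) at -367. The start of a noncoding gene was closer to each of these summits. It lay 13 bp away at rpl-5 (F54C9.17), 70 bp at rps-21 (21ur-7304) and 95 bp at rpl-7 (F53G12.15). All 6 genes from rps-23 to rpl-7 had a region in both replicates, as did all 11 with a thresholded region. The 6 were picked by high pooled signal and the 11 by the IDR procedure, so this was likely in advance.

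The other 11 genes in that top 10% ran from rpl-38 with 73.4 through rpl-22 with 68.9 and rps-12 with 67.0 down to rpl-25.2 with 52.7. Of these, rpl-22 was the gene without a region in replicate 2. The lowest pooled signals were 22.3 at rps-24 (-131), 22.7 at rpl-11.1 (-410), 26.2 at rps-25 (50) and 26.9 at rpl-2 (-110). Each of these 4 had a region in a single replicate, rpl-2 in replicate 1 with 20.3 and the others in replicate 2 with 24.6, 13.6 and 17.1. The close copies rpl-11.1 and rpl-11.2 thus stood near opposite ends of the run, 22.7 against 99.0 in pooled signal. At both copies another gene began closer to the pooled summit. This was the divergent gene T22F3.2, 165 bp away, at rpl-11.1 and AH9.7, 102 bp away, at rpl-11.2. The handling of multiply mapped reads, which bears on copied sequence, is not given in the sources used here. Whether the copies also resemble each other at these upstream summits was not examined. The 6 genes with their strongest pooled summit downstream of the start were rpl-19 (461), rpl-37 (216), rps-8 (173), rpl-25.1 (146), rps-25 (50) and rpl-23 (5).

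No pooled region was at the start of 17 members, of which 10 had a region in a single replicate list. Their values ran from 14 at rpl-29 to 20 at rps-18 in replicate 2 and from 17.3 at rps-7 to 46.4 at rps-27 in replicate 1. The value at rps-27 was well above the replicate median of 23.1, although neither the pooled nor the replicate 2 list had a region there. The 7 genes with none in any list were rpl-9, rpl-10, rpl-16, rpl-21, rpl-27, rpl-33 and rpl-42, all for the large subunit. Of these 7, rpl-16 and rpl-27 start close behind a gene on the same strand, with gaps of 105 bp after lias-1 and 119 bp after C53H9.2. Of the 78 members 47 are rpl- genes, and no count over all protein-coding genes stands beside the 7. In the pooled list alone the rpl- share with a region was the larger, 80.9% against 74.2% for rps- genes. The 7 therefore show no difference between subunits.

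Signal values in the replicates ran together across members, given here as a description. Over the 38 genes with a region in both, the correlation of the signal values was 0.849 (Pearson) and 0.718 (Spearman). Over the 27 of them without a thresholded region it was 0.413 and 0.411. The 2698 protein-coding genes with regions in both gave 0.758 and 0.419. The points are genes, and their regions need not match between replicates, as at rpl-19 (464 in replicate 1, -263 in replicate 2). The head-to-head genes rpl-39 and rps-30 share a region in each replicate list and stand as separate points. The points also share the control alignment and the local sequence, and the thresholded genes passed the IDR procedure, which itself selects for consistent ranks.

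**Figure D4:**
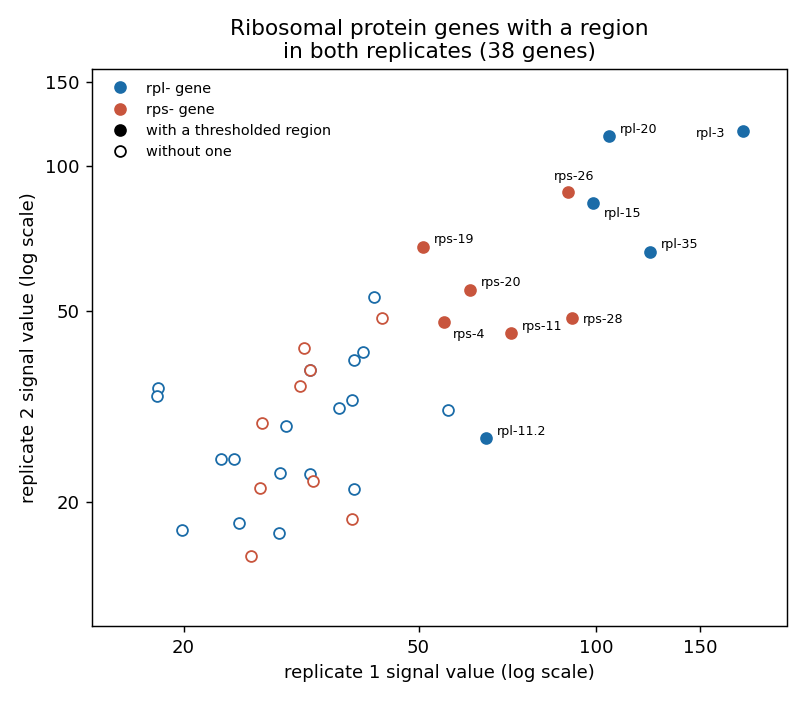
Each circle is a ribosomal protein gene with a region in both replicates (38 genes), with the replicate 1 signal value across and the replicate 2 value up, both on log scales. Genes with a thresholded region reach up to rpl-3 with 176.9 and 118.4, and at the low end they mix with genes without one, such as rpl-7A and rpl-5; rpl-11.2 is the lowest of the 11 in replicate 2 with 27.1.

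Ribosomal protein genes are arranged unlike the average gene, and this arrangement was set beside the counts. A head-to-head neighbour less than 2000 bp away was present at 48 of 78 ribosomal protein genes (61.5%), against 4990 of 19973 protein-coding genes (25%). Within that class, 5 of 48 (10.4%) had a thresholded region, against 115 of 4990 (2.3%), and 38 (79.2%) a pooled one, against 36.6%. With an upstream gene on the same strand 500 bp or more away, 4 of 16 ribosomal protein genes (25%) had a thresholded region, against 37 of 6632 protein-coding genes (0.558%). In that class 14 of 16 (87.5%) had a pooled one, against 27.8%. With a same-strand gap under 500 bp none of 8 had a thresholded region, against 26 of 3535 (0.736%), and 4 of 8 had a pooled one, against 39.0%. Of the 4 genes with an opposite-strand neighbour 2000 bp or more away, rpl-35 and rps-28 had a thresholded region, against 0.582% of 3435 protein-coding genes. The thresholded share of ribosomal protein genes was therefore the higher in 3 of the 4 arrangements given, and neither of the 2 members that start inside another gene had a thresholded region.

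**Figure D5:**
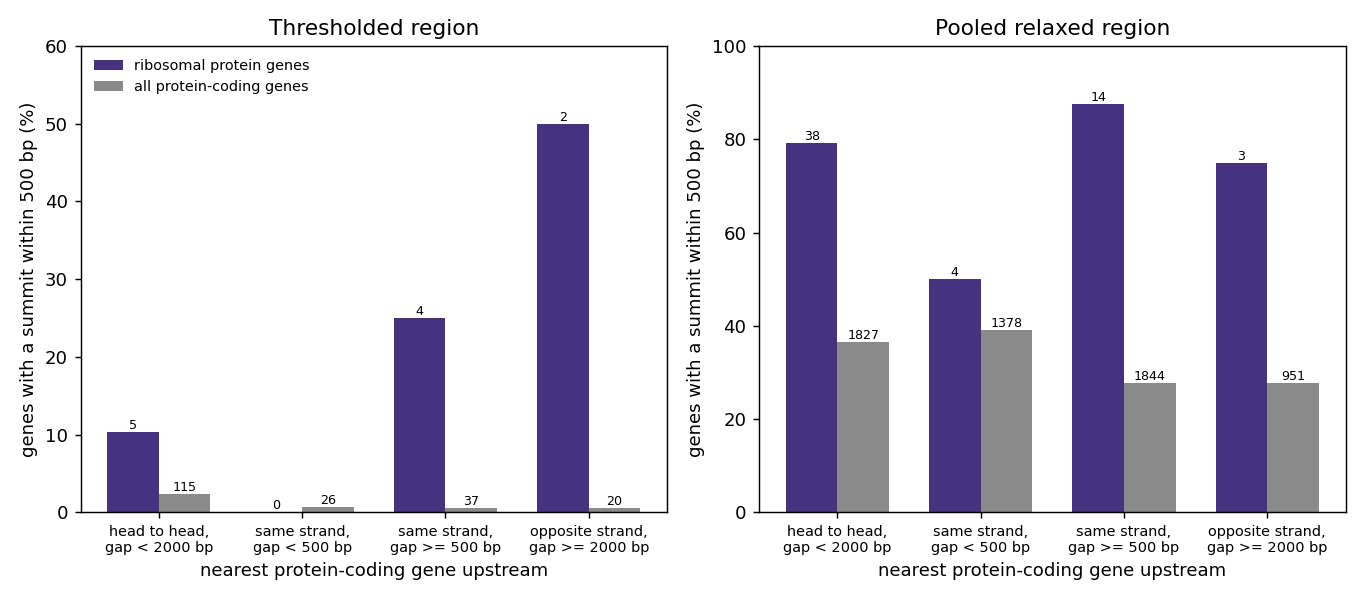
Bars give the percentage of genes with a thresholded (left) or pooled relaxed (right) region summit within 500 bp of the start, for ribosomal protein genes and all protein-coding genes, split by the arrangement of the nearest upstream protein-coding gene; the number of genes with a region stands over each bar. Among head-to-head genes the thresholded share is 10.4% and 2.3%, and in the same-strand class with a gap under 500 bp it is 0 of 8 ribosomal protein genes.

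In 3 cases the head-to-head partner was itself a ribosomal protein gene and the pair shared a region. Between rpl-39 and rps-30 on V a pooled summit at 7776324 had a signal of 64.7, with 32.8 in replicate 1 and 37.6 in replicate 2. Between rpl-36 and rps-14 on III a pooled summit at 7179940 had 37.4, with 29.0 in replicate 2 and no region in replicate 1. Between rpl-24.1 and rps-10 on I the pooled summits had 34.6 and 23.6, with 26.6 in replicate 2 and no region in replicate 1. None of the 3 pairs had a thresholded region. Because of this sharing and because 18 members had more than 1 region, the 61 members had 75 distinct pooled regions. Neighbouring summits at a single gene were 200 to 745 bp apart with a median of 212 bp, and 15 of 17 such pairs of regions overlapped, so they are not separate observations.

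The gene bodies held few regions. A pooled summit lay inside 9 of 78 ribosomal protein genes (11.5%), against 39.7% of protein-coding genes. A thresholded summit lay inside none of them, against 149 protein-coding genes (0.746%). Ribosomal protein genes are also shorter, with a median length of 753.5 bp, against 2027 bp, and the part of length in this difference was not tested.

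The snoRNA genes inside members were examined because small RNA genes hold 48.3% of all thresholded regions. At least 1 snoRNA gene lay inside 13 of 78 ribosomal protein genes (16.7%), against 192 of 19973 protein-coding genes (0.961%). Of these 19 inner snoRNA genes, none had a thresholded summit within 250 bp, and 2 had a pooled one, F54E7.10 in rps-12 and Y43B11AR.7 in rps-4. The summit near F54E7.10 is the one already counted at the start of rps-12, at -112. No pooled summit lay inside any of the inner snoRNA genes. Of all 216 snoRNA genes inside protein-coding genes, 28 had a thresholded summit within that distance and 79 (36.6%) a pooled one. Among the 13 hosts, rpl-15 and rps-4 had a thresholded region, upstream of the start in both cases. The thresholded regions of these hosts thus lay on the promoter side and not at the snoRNA.

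Other genes of protein synthesis were compared by lists named from textbook membership. Beside them stand the shares of all protein-coding genes, 1.04% with a thresholded and 32.2% with a pooled region. Of 71 mitochondrial ribosomal protein genes none had a thresholded region, and 45 (63.4%) had a pooled one. Of 6 ribosomal proteins with other names (rla-0, rla-1, rla-2, ubl-1, ubq-2 and rack-1) none had a thresholded region and 3 a pooled one. Translation factors had a thresholded region at 2 of 42 genes (4.76%) and a pooled one at 31 (73.8%). In the relaxed lists they stood close to the ribosomal protein genes, with a region in both replicates at 21 of 42 translation factors and 38 of 78 ribosomal protein genes. The factor genes were eif-3.C, for a subunit of the initiation factor that binds the small subunit, with 185.5 (113.8 in replicate 1, 71.8 in replicate 2) at -292, and eef-1A.1, for the elongation factor that delivers aminoacyl-tRNA, with 99.5 (56.7 in replicate 1, 46 in replicate 2) at -329. For eef-1A.1 the start of cel-mir-5549 was closer, 44 bp from the summit. Of 31 aminoacyl-tRNA synthetase genes 1 (3.23%) had a thresholded region, ears-2 with 300.7 (173.5 in replicate 1, 125.7 in replicate 2) at -30. Of 34 ribosome biogenesis genes none had a thresholded region, and 23 (67.6%) had a pooled one. In lists of 6 to 71 genes a thresholded count of 0 lies near the 1.04% of all protein-coding genes and shows no lack of regions. The pooled share was above 32.2% in each list, and no list was tested against the rpl- and rps- genes.

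Short words were searched on both strands in the promoters, taken from 250 bp before to 50 bp after the start. Of the 11 thresholded member summits, only those of rps-19 and rps-20 lie within 250 bp of the start. The promoter shares therefore do not describe the sequence at the other summits. The word TTGCAA was in 16 of 78 ribosomal protein promoters (20.5%) and 14.8% of all protein-coding promoters. TATAAA, a form of the TATA box, was in 26.9% and 37.9%, CACGTG, the E-box, in 1.28% and 5.82%, and GAGAGA in 21.8% and 21.8%. The tRNA-type words GTTCGA, from the B box, and AGTGGT, from the A box, were in 7.69% and 7.69% of ribosomal protein promoters, against 9.85% and 8.96% of all. TAGTTA was in 10.3% of ribosomal protein promoters and 11.3% of all. In the summit windows of the 11 members, TATAAA and GAGAGA had 1 match each and the other words had none. Over all 416 thresholded windows GTTCGA was in 23.3%, AGTGGT in 17.5%, TTGCAA in 11.5%, GAGAGA in 11.5%, TATAAA in 7.69%, CACGTG in 2.88% and TAGTTA in 1.68%.

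The words in capitals under the rpl- summits were noticed in those windows after their sequences were seen, so their counts there are no evidence. GCGTGTTT was in 3 of the 11 member windows and in 6 of the 405 other thresholded windows (1.48%). TACGGT was in 4 of 11 and in 12 of 405 (2.96%), and AAGTGT in 4 of 11 and in 32 of 405 (7.9%). In the 500 bp upstream of the start, at the 67 members without a thresholded region, which did not supply the words, TACGGT was in 30 (44.8%), against 2785 of 19973 protein-coding genes (13.9%). GCGTGTTT was in 1.49% of those 67 members, against 1.75% of all, and AAGTGT in 23.9%, against 28.6%.

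TACGGT was spread over both subunits and over gene arrangements. It was in the 500 bp upstream of 25 of 47 rpl- genes (53.2%) and 11 of 31 rps- genes (35.5%). Among head-to-head genes it was in 24 of 48 ribosomal protein genes, against 881 of 4990 protein-coding genes (17.7%). In mitochondrial ribosomal protein genes it was in 15.5%, in translation factors 21.4%, in biogenesis genes 20.6% and in synthetases 12.9%.

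Pooled regions were about as frequent with the word as without it. Members with it had a pooled region in 28 of 36 cases (77.8%) and members without it in 33 of 42 (78.6%), against 34.3% of all protein-coding genes with it and 31.9% without. For thresholded regions the counts were 6 of 36 (16.7%) and 5 of 42 (11.9%), against 1.29% and 0.995% of all protein-coding genes. Those 6 members include the ones in whose windows it was noticed. A region in both replicates was at 16 of 36 members with the word (44.4%) and 22 of 42 without (52.4%), against 15.6% and 13.2% of all protein-coding genes. Of the 64 distinct pooled windows at members apart from the thresholded ones, 5 (7.81%) held TACGGT, against 2.85% of all pooled windows. The upstream sequence of members without a thresholded region held it more often as well, 44.8% against 13.9% of all protein-coding genes. Whether the word gathers at summits beyond this was not tested. A match describes the letters in a window and is not shown to be a site of HMBX-1.

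Base composition was measured at the same places. Member promoters had a median G and C content of 33.0%, against 34.3% over all protein-coding promoters. At the median summit position of the 11 regions, 393 bp before the start, windows of members without a thresholded region had 36.6%, against 33.7% over all protein-coding genes. The strongest pooled windows of the 50 members without a thresholded region had 38.1%, against 33.7% over all pooled windows. The part of base composition in the counts of regions was not tested.

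By chromosome, thresholded regions were at 3 of 23 members on I, 2 of 18 on III, 5 of 17 on IV and 1 of 2 on X, against 1.49%, 1.33%, 1.19% and 0.696% of all protein-coding genes there. None of the 10 members on II or the 8 on V had one, against 1.16% and 0.621% of all protein-coding genes. With so few members on a chromosome these counts show no difference between chromosomes.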

How the data were processed

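The deposited files are region lists in narrowPeak format for 2 biological replicates of HMBX-1 ChIP-seq. Per the notes deposited with the samples, the authors called relaxed lists (peaks with background) on single and pooled replicates against a shared control alignment, then a thresholded list by IDR. The deposited signal value and the deposited −log10 q value per region are the authors' own and were used only within a list. The sources used here do not give the aligner, caller, versions, IDR threshold or handling of multiply mapped reads. Read depth is unknown, so no intervals are given.

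Only the ce11 lists were used, with nuclear regions alone; ce11 positions (1-based) were read against Ensembl gene models of WBcel235 and RefSeq sequence of the same assembly, whose chromosome ends no region passes. The summit is the region start plus the deposited offset, and 500 bp was the distance limit. No columns of other samples were present. Promoter words were searched on both strands.

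Members, gene lists and the naming rule were chosen with earlier results of these data known. The rule names all members with a thresholded region, the 6 with the highest and the 4 with the lowest pooled signal among the others, and listed genes with a thresholded region; further members were named after their values were seen. With 1 group and no contrast, no test was run: counts are set beside those of all 19973 protein-coding genes. Alternatives changed the distance, the gene start, the list and the replicate. The counting was checked on planted summits. Python 3.11.15, numpy 2.4.6, pandas 2.3.3, scipy 1.17.1 and matplotlib 3.10.9 were used.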

Additional observations from a re-analysis of the deposited data

How the results depend on the processing

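The distance limit and a stricter thresholded list moved counts by more than 1.5 times. With the limit at 250 bp, 2 ribosomal protein genes had a thresholded region (rps-19 and rps-20), against 120 protein-coding genes (0.601%); 2 distinct regions remained, and 0 members had one under the nearest-start rule, against 0.451% of protein-coding genes. At that limit 40 members had a pooled region and 14 one in both replicates, against 20.1% and 6.5% of protein-coding genes. At 1000 bp the thresholded count was 11. Among the regions at or above the median signal of the thresholded list, 6 members had a region, against 92 protein-coding genes (0.461%). With the 416 regions of highest signal in a single replicate in place of the thresholded list, 9 to 12 members had a region, 8 of them with either replicate. Without replicate 1, rpl-5 and rps-23 entered and rpl-11.2 left; without replicate 2, rps-19 and rps-4 left. The nearest-start count was 6 in both cases, with rpl-20 in place of rps-4 without replicate 2, and 49 to 60 members had a region in a single relaxed list. Counts with transcript or coding starts, overlap in place of the summit, or without regions at small RNA genes stayed within 1.5 times those reported. No paired analysis was possible because the replicates form 1 group with no contrast. Unknown depth limits what an absent region shows.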
